A study of Saccharomyces cerevisiae with 24 samples.

Results

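The 7 genes described here encode the chaperones that sit on the yeast ribosome: *ZUO1* (YGR285C), *SSZ1* (YHR064C, named *PDR13* on the array), *SSB1* (YDL229W), *SSB2* (YNL209W), *EGD1* (YPL037C), *EGD2* (YHR193C) and *BTT1* (YDR252W). They were chosen by their role, with earlier results from the same arrays in view, and are 7 of the 6307 open reading frames (ORFs) on the array, with 1 spot each. Zuo1, a J-domain protein, and Ssz1, an atypical Hsp70, form the ribosome-associated complex (RAC), which stimulates the ATPase of the ribosome-bound Hsp70s Ssb1 and Ssb2 so that they hold newly made chains at the tunnel exit. Egd2 and Egd1 are the alpha and beta subunits of the nascent polypeptide-associated complex (NAC), which contacts chains at the same exit, and Btt1 is a second, scarcer beta subunit. In yeast the *SSB* genes are known to be expressed in step with the ribosomal protein (RP) genes, which are switched off when TOR signaling is blocked or cells are stressed.

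Messenger RNA from 2 cultures, labelled with Cy3 and Cy5, was hybridized together on each of 24 spotted ORF arrays, which form 12 comparisons of 2 dye-reversed arrays. All strains were haploid BY4741, which carries deletions in *ura3*, *leu2*, *his3* and *met15*; each mutant was a single deletion strain in which kanR replaced the gene of 1 Mediator subunit. A *med20Δ* strain, lacking a subunit of the head module, was compared with wild-type in 7 states: untreated, rapamycin (0.2 µg/ml for 1 h, an inhibitor of TOR signaling), chlorpromazine (CPZ, 1 h), tunicamycin (2.5 µg/ml for 90 min, an inhibitor of N-glycosylation), H2O2 (0.32 mM for 30 min), heat stress (29 to 39°C for 20 min) and diauxic shift (48 h of growth from an A600 of 0.01). The CPZ dose is 250 mM in the labels and 250 µM in the methods. Rapamycin-treated and untreated cells were compared directly within *med20Δ* and within wild-type, and *med16Δ* (tail module), *med31Δ* (middle module) and *cycCΔ* (Cdk module) strains were each compared with wild-type after rapamycin. Cells were grown in YPD, at 30°C except before heat stress, and the drug and H2O2 treatments began at an A600 of 0.2. The sources do not say that the 2 arrays of a comparison came from separate cultures, so their mean was taken as 1 replicate and single comparisons carry no test. In what follows a log2 ratio is the mean of both arrays with replicates 1 and 2 in parentheses, and 2-fold means a log2 ratio of 1 or more in size. Where a mutant was compared with wild-type, replicate 1 has the mutant in Cy3 and replicate 2 has it in Cy5. Where treated cells were compared with untreated cells, replicate 1 has the treated cells in Cy5 and replicate 2 has them in Cy3.

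The deleted gene was below wild-type on every array of its strain, with log2 ratios from -0.89 to -0.26 for *MED20*, -0.67 for *MED16*, -1.05 for *MED31* and -0.88 for *SSN8* (cyclin C). Between 5653 and 5929 ORFs were measured on both arrays of a comparison. The Pearson r between the 2 arrays across genes was 0.917 for rapamycin in wild-type and 0.851 in *med20Δ*. For *med20Δ* against wild-type it was 0.346 for diauxic shift, 0.424 for H2O2, 0.475 for CPZ and 0.532 to 0.724 in the other states. It was 0.231 to 0.25 for *med16Δ*, *med31Δ* and *cycCΔ*, where few genes were past 2-fold. Net intensity, the spot brightness after subtraction of local background, was read against the 95th percentile of 29 unnamed spots in the same channel. *ZUO1*, *SSZ1*, *SSB2*, *EGD1* and *EGD2* were above that level in all 48 channels. *BTT1* was above it in all 36 channels of 18 arrays, at 43.5 to 285.5, and in 0 of 12 channels of the *med16Δ*, *med31Δ* and *cycCΔ* arrays, at -15.5 to 15.5.

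The *SSB1* spot had a net intensity of 8.0 to 170.5 on the 6 arrays of *med16Δ*, *med31Δ* and *cycCΔ*, where 6 of 12 channels were above the unnamed spots, against 919.5 to 23406.5 on the other 18 arrays. *SSB2* stayed bright on those 6 arrays, at 1573 to 9877.5, against 896 to 28458 elsewhere. Wild-type RNA was dim at the *SSB1* spot there as well as mutant RNA. The same held for other ORFs: 347 were above the unnamed spots in all 36 channels of the 18 arrays and in none of the 12, out of 4825 above in all 36, and 55 showed the reverse. The *SSB1* log2 ratios on those 6 arrays, 0.01 to 0.09 as pair means, are therefore not read as levels of *SSB1*. *SSB1* and *SSB2* are near-identical copies whose RNA can bind either spot, and elsewhere their values cannot be taken as separate measurements of 2 genes.

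**Figure D1:**
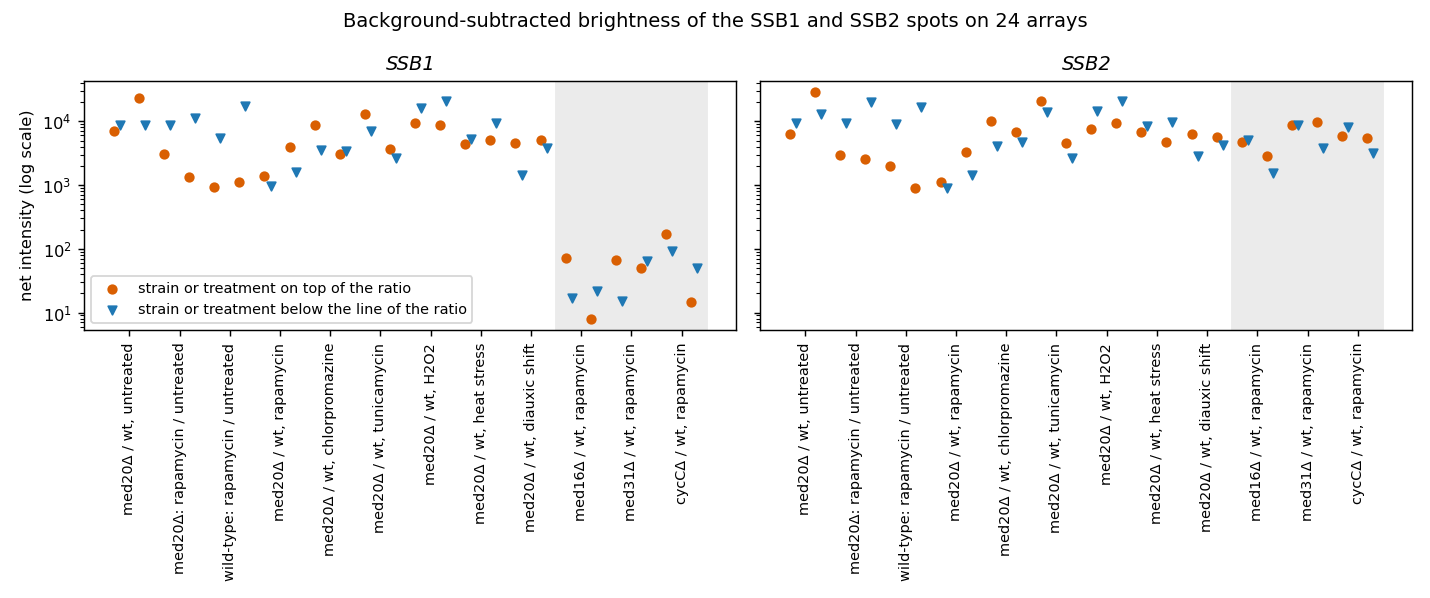
Net intensity (log scale) of the *SSB1* and *SSB2* spots on 24 arrays, 2 per comparison, with 1 point per channel; circles are the strain or treatment on top of the ratio and triangles the one below it. On the 6 shaded arrays of *med16Δ*, *med31Δ* and *cycCΔ* the *SSB1* spot lay between 8.0 and 170.5 while *SSB2* stayed at or above 1573.

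The first question was how the genes stood in untreated cells without Med20. Both RAC genes were higher in *med20Δ*. *ZUO1* had a log2 ratio of 1.47 (1.55 and 1.39), which is 2.77-fold, and *SSZ1* one of 0.90 (0.97 and 0.84). The Hsp70 genes followed at 0.72 (0.70 and 0.75) for *SSB1* and 0.41 (0.44 and 0.38) for *SSB2*. The NAC genes lay nearer to 0, with *EGD2* at 0.19 (0.14 and 0.24) and *EGD1* at 0.13 (0.21 and 0.06), and *BTT1* had -0.23 (0.02 and -0.49). *ZUO1* was the 1 member past 2-fold, in a comparison where 0.245% of 5714 genes were higher by that much; its ratio here was among those known when the genes were selected, so it is a description. *SSZ1* was also past it with the deposited normalized ratios (1.05) and with loess fitted outside the RP and biogenesis genes (1.01), where *SSB1* had 1.01. Among 127 RP genes the median was 0.13, and 1 of them was past 2-fold.

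After rapamycin the Hsp70 genes stood much further below untreated cells than the RAC genes did, in both strains. *SSB1* had a log2 ratio of treated over untreated of -2.27 (-2.55 and -1.99) in *med20Δ*, 4.82-fold lower, and -2.83 (-2.81 and -2.84) in wild-type, 7.09-fold lower. With the deposited normalized ratios the wild-type value of *SSB1* was -2.13, 4.39-fold lower, and that of *SSB2* -2.06. *SSB2* had -2.12 (-2.68 and -1.56) in *med20Δ* and -2.77 (-2.43 and -3.11) in wild-type. The arrays of *SSB2* overlapped between the strains, and those of *SSB1* did not. How many of all genes lacked overlap was not counted. With the deposited normalized ratios the *SSB1* means of the strains differed by only 0.08. *EGD2* had -1.09 (-1.18 and -0.998) in *med20Δ* and -1.42 (-1.26 and -1.58) in wild-type. These 3 genes were past 2-fold in both strains, where 5.57% of 5741 genes in *med20Δ* and 6.20% of 5738 in wild-type were lower by that much. With the deposited normalized ratios *EGD2* had -0.85 in *med20Δ* and did not reach 2-fold.

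The RAC genes did not reach 2-fold, except *SSZ1* in wild-type with the deposited normalized ratios (-1.15) and on replicate 2. *SSZ1* had -0.55 (-0.63 and -0.47) in *med20Δ* and -0.88 (-0.67 and -1.08) in wild-type, and *ZUO1* had -0.40 (-0.64 and -0.17) in *med20Δ* and -0.72 (-0.50 and -0.93) in wild-type. *EGD1* had -0.27 (-0.66 and 0.12) in *med20Δ* and -0.76 (-0.79 and -0.74) in wild-type, while *BTT1* had 0.14 (0.06 and 0.21) and -0.07 (-0.22 and 0.08). For the 6 genes other than *BTT1* the mean was lower in both strains and nearer to 0 in *med20Δ*, by 0.31 for *ZUO1*, 0.32 for *SSZ1*, 0.33 for *EGD2*, 0.49 for *EGD1*, 0.56 for *SSB1* and 0.65 for *SSB2*. These differences were not tested, since each strain has 1 replicate, and several depend on the processing. With the deposited normalized ratios they were -0.02 for *ZUO1*, 0.59 for *SSZ1*, 0.36 for *EGD2*, 0.03 for *EGD1*, 0.08 for *SSB1* and 0.17 for *SSB2*. With loess fitted outside the RP and biogenesis genes the difference of *ZUO1* was 0.05, and on replicate 1 alone those of *ZUO1* and *SSB2* were -0.14 and -0.25. No difference between the strains is read from these genes for that reason.

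The median of the RP genes moved much more between the strains, at -1.17 in *med20Δ* (86 of 129 past 2-fold lower) and -3.09 in wild-type (120 of 128). The *SSB* ratios in *med20Δ* were thus below the RP median of that strain, while in wild-type they were above it, except that on replicate 1 alone *SSB1* had -2.81 in wild-type against an RP median of -2.79. Genes for ribosome assembly, from a list of 41, had medians of -1.34 in *med20Δ* and -1.04 in wild-type; *NOP56*, a box C/D snoRNP protein, had -2.93 (-3.07 and -2.79) and -2.97 (-2.96 and -2.99). The elongation factors had medians of -0.47 in *med20Δ*, with 2 of 10 past 2-fold lower, and -1.33 in wild-type, with 8 of 10. Among them *YEF3* (elongation factor 3) had -2.09 (-2.23 and -1.96) in *med20Δ* and -2.69 (-2.36 and -3.03) in wild-type. *MAP1*, a methionine aminopeptidase, had -1.30 in wild-type (-1.29 and -1.32). The signal recognition particle had medians of -0.25 in *med20Δ* and -0.01 in wild-type, with 3 and 2 of 5 genes lower on both arrays. Of all genes, 2126 of 5741 in *med20Δ* and 2256 of 5738 in wild-type were lower on both arrays. The 1 signal recognition particle gene that was higher, *SRP68*, had 2.11 (2.27 and 1.94) in *med20Δ* and 2.12 (2.08 and 2.15) in wild-type.

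**Figure D2:**
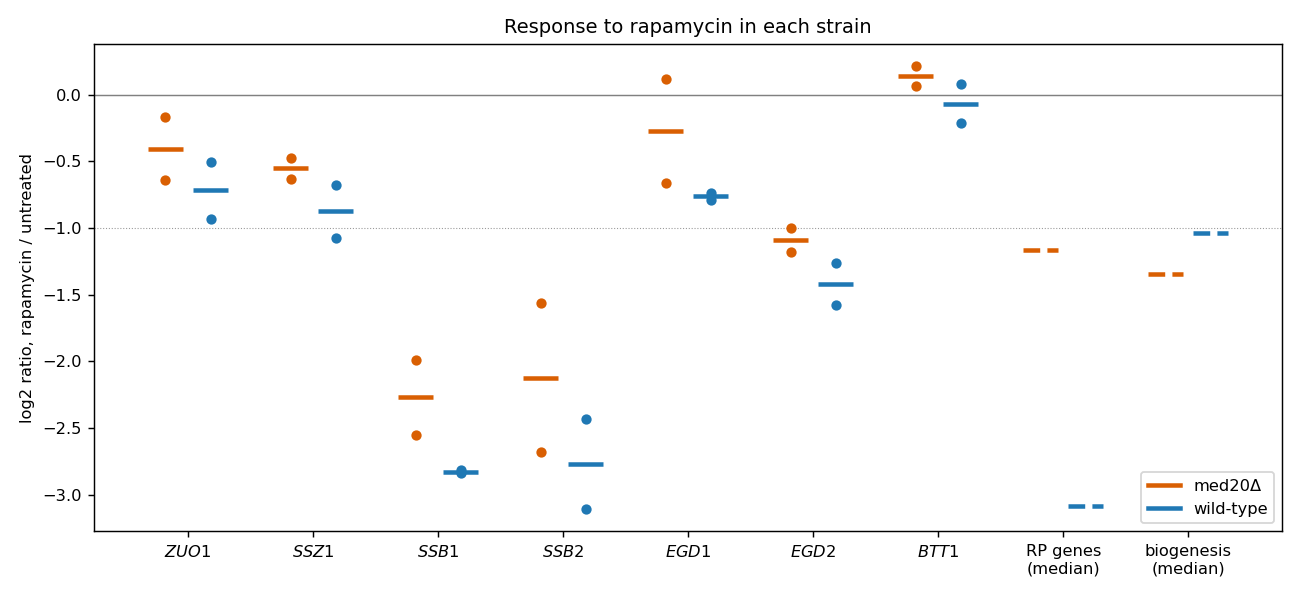
Log2 ratio of rapamycin-treated over untreated cells in *med20Δ* (orange) and wild-type (blue); points are the 2 arrays, bars their mean, and dashed bars the medians of the RP and ribosome biogenesis lists, with the dotted line at 2-fold lower. The *SSB* genes lay below -2 in both strains, and the RP median was -1.17 in *med20Δ* and -3.09 in wild-type.

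After rapamycin, the direct comparison of *med20Δ* with wild-type again had *ZUO1* past 2-fold, at 1.02 (0.78 and 1.27), in a comparison where 2.11% of 5747 genes were higher by that much; with the deposited normalized ratios it had 0.94. *SSB1* followed at 0.84 (0.95 and 0.72), *SSZ1* at 0.79 (0.49 and 1.10) and *SSB2* at 0.66 (0.72 and 0.60). *EGD2* had 0.37 (0.21 and 0.53), *BTT1* 0.12 (0.21 and 0.03) and *EGD1* 0.04 (-0.01 and 0.10). The RP median was 1.42, with 96 of 129 RP genes past 2-fold. Each of the 7 lay below that median, as did every gene outside the 2.11%. The same ratio can be derived from the untreated ratio and the rapamycin response of each strain. The derived value was 1.78 for *ZUO1* against the direct 1.02, a difference of 0.76, which lies above the central 95% of all genes (-0.99 to 0.72). For the other 6 genes the difference was -0.15 to 0.58, inside that range. For *ZUO1* the gap between the derived and direct values exceeded that between its 2 direct arrays.

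With CPZ, a drug that disturbs membranes, *ZUO1* had 1.59 (1.83 and 1.35), 3.01-fold, and *SSZ1* had 1.14 (1.26 and 1.02), 2.21-fold, both past 2-fold on each array. The arrays overlapped with those of untreated cells for *ZUO1* and with those of heat stress for *SSZ1*. The share of genes past 2-fold in that direction was 1.14% of 5694. *SSB2* had 0.78 (1.05 and 0.51), *EGD1* 0.73 (0.90 and 0.55), *EGD2* 0.66 (0.69 and 0.63) and *BTT1* 0.13 (0.08 and 0.17). *SSB1* had 0.52, but its arrays disagreed, at 1.06 and -0.02. The RP median was 0.58, with 11 of 128 past 2-fold.

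In tunicamycin *SSB2* had 1.05 (1.14 and 0.96), just past 2-fold, and *SSB1* 0.99 (1.29 and 0.69), just short of it, against a background of 1.86% of 5653 genes higher by that much. The *SSB2* ratio was 0.83 with the deposited normalized ratios and 0.84 with median centering, short of 2-fold, while *SSB1* reached 1.02 with loess fitted outside the RP and biogenesis genes. *ZUO1* had 0.89 (0.79 and 0.99), *SSZ1* 0.70 (0.72 and 0.68), *EGD2* 0.59 (0.49 and 0.69), *EGD1* 0.28 (0.45 and 0.10) and *BTT1* 0.00 (0.06 and -0.05). Here the RP median was 1.20, with 73 of 126 past 2-fold.

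In H2O2 and heat stress the RAC genes and the *SSB* genes had ratios of opposite sign. In H2O2, *ZUO1* had 0.46 (0.66 and 0.27) and *SSZ1* 0.45 (0.33 and 0.57), whereas *SSB1* had -0.92 (-0.54 and -1.30) and *SSB2* -0.95 (-0.74 and -1.16). None of the 7 was past 2-fold in H2O2, where 4.36% of 5732 genes were in either direction. Under other settings *SSB1* did pass in H2O2, at -1.002 with the deposited normalized ratios, -1.04 with loess fitted outside the RP and biogenesis genes and -1.12 with median centering, and *SSB2* passed at -1.08 and -1.13 in the last 2. In heat stress, *ZUO1* had 1.12 (1.03 and 1.22), 2.18-fold, and *SSZ1* 1.13 (0.89 and 1.37), while *SSB1* had -0.76 (-0.42 and -1.10) and *SSB2* -0.81 (-0.38 and -1.24). The RAC genes were the 2 members past 2-fold in heat stress, against 0.823% of 5709 genes higher. In both states every array was above 0 for the RAC genes and below 0 for the *SSB* genes. The difference between the genes was not tested, and *SSB1* and *SSB2* can share signal. Of all genes, 1803 of 5732 in H2O2 and 1867 of 5709 in heat stress were above 0 on both arrays. Below 0 on both were 1698 and 1783.

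In these 2 states the RP medians were -0.28 and -0.06, nearer to 0 than the *SSB* ratios, and the biogenesis medians were -0.60 in H2O2 and -0.42 in heat stress. *YEF3* had -1.45 in H2O2 (-1.27 and -1.63). Cytosolic Hsp70 and Hsp90 genes outside the ribosome stood higher in *med20Δ*, with medians of 0.56 in H2O2 and 0.82 in heat stress and 4 of 13 past 2-fold in each. Of all genes, 162 of 5732 were higher by that much in H2O2 and 47 of 5709 in heat stress. From the list, *SSE2* had 1.93 in H2O2 (1.84 and 2.01), and *SSA4*, a stress-induced Hsp70, had 1.76 (1.30 and 2.21). *FES1*, a nucleotide exchange factor for Hsp70, had 1.62 in H2O2 (1.67 and 1.56) and 1.70 in heat stress (1.52 and 1.88). The same list had medians below 0 in *med20Δ* with rapamycin, CPZ, tunicamycin and diauxic shift (-0.73 to -0.36). The subunits of the chaperonin TRiC had medians of -0.08 to 0.25 over the 7 states.

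*EGD2* in H2O2 had arrays of opposite sign, 0.82 and -0.35, with a mean of 0.24, and in heat stress it had 0.54 (0.45 and 0.63). *EGD1* had -0.92 in H2O2 and -0.48 in heat stress, but the arrays were at 0.34 and -2.17 in the first and at 0.13 and -1.08 in the second. *BTT1* had -0.13 (-0.04 and -0.22) and -0.29 (-0.13 and -0.44). After diauxic shift no member was past 2-fold, where 2.87% of 5716 genes were in either direction: *ZUO1* had 0.82 (1.01 and 0.63), *SSZ1* 0.77 (0.75 and 0.80) and *EGD2* 0.57 (0.57 and 0.57). *SSB1* (1.18 and -0.14), *SSB2* (0.72 and -0.09), *EGD1* (1.47 and -0.69) and *BTT1* (0.16 and -0.08) each had 1 array above and 1 below 0.

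**Figure D3:**
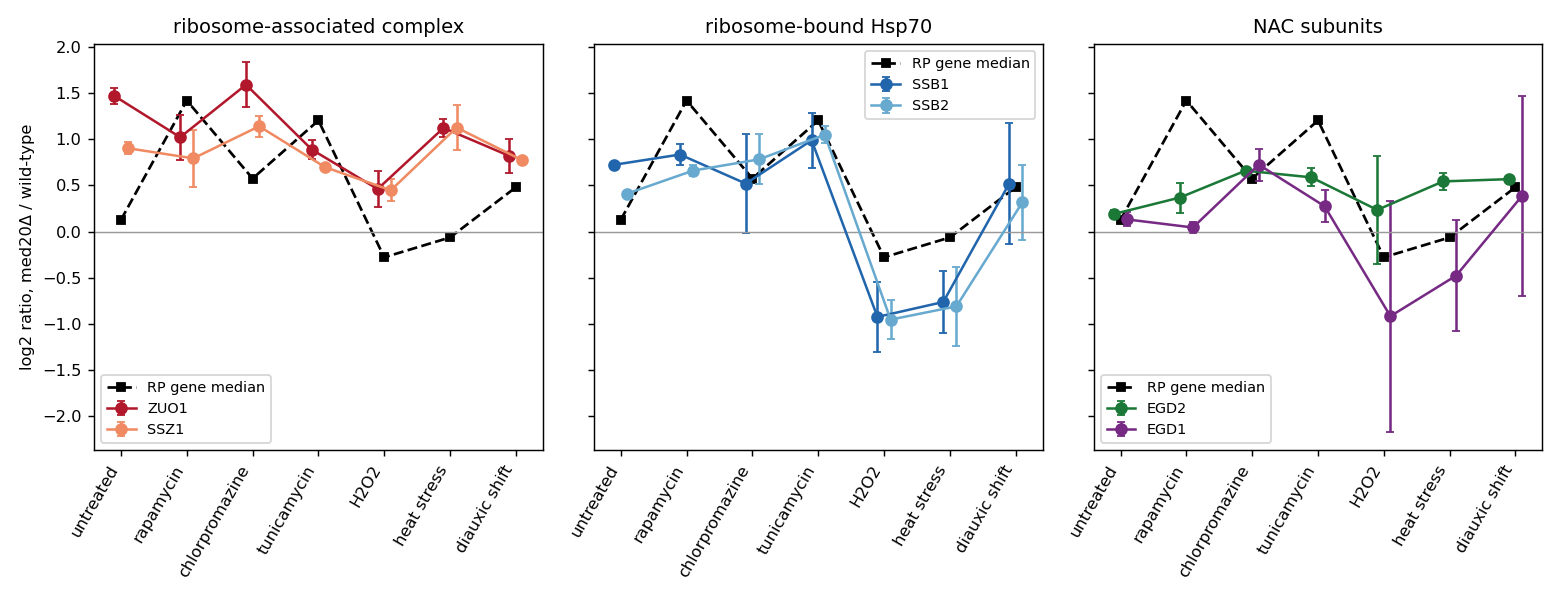
Log2 ratio of *med20Δ* over wild-type in 7 states for the RAC, *SSB* and NAC genes; points are means of 2 arrays, bars run to the 2 arrays, lines only join the points of a gene, and dashed black squares give the RP median. The RAC genes were above 0 in all 7 states, while the *SSB* genes lay between -0.95 and -0.76 in H2O2 and heat stress.

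The array that was higher tended to be the same one for some members. Over the 7 comparisons of *med20Δ* with wild-type, replicate 1 minus replicate 2 averaged 0.94 for *EGD1* (-0.12 to 2.50), 0.65 for *SSB1* (-0.06 to 1.31) and 0.43 for *SSB2* (0.06 to 0.86), and replicate 1 was higher for *SSB2* in 7 of 7. It averaged 0.08 for *ZUO1*, -0.14 for *SSZ1*, 0.06 for *EGD2* and 0.21 for *BTT1*. Dye orientation and array cannot be told apart here, and the mean of the pair holds both orientations.

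**Figure D4:**
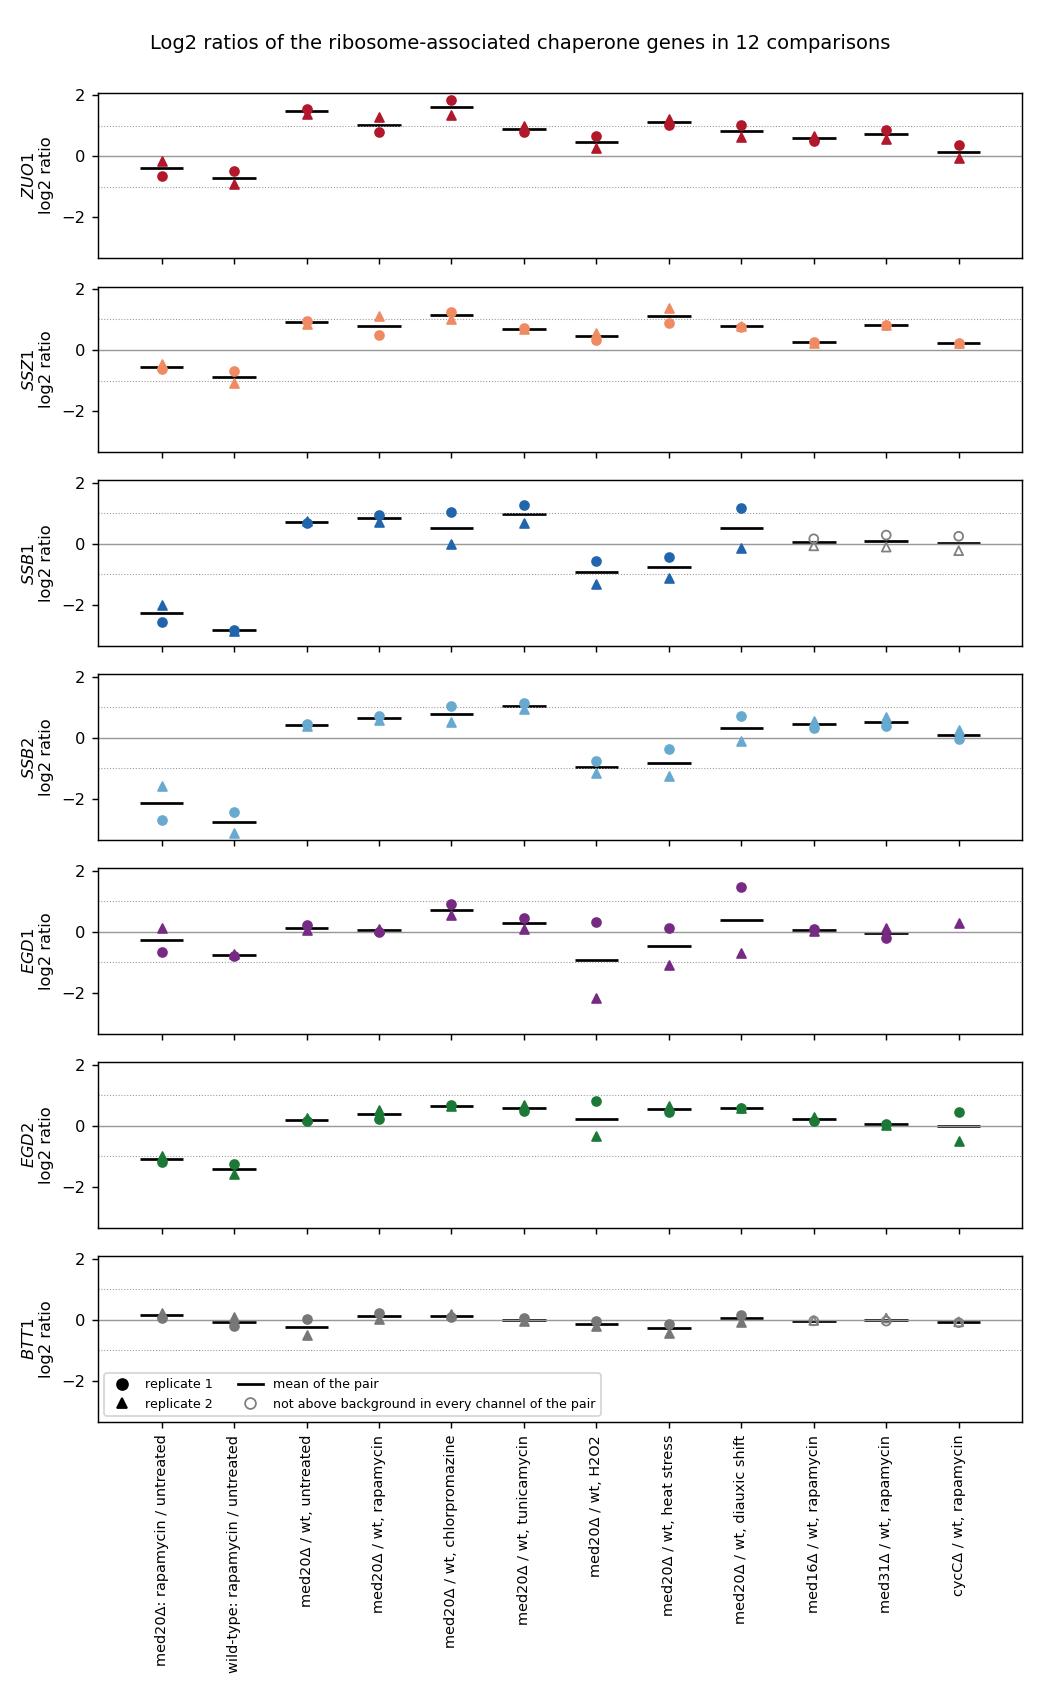
Log2 ratios of the 7 genes in 12 comparisons; circles and triangles are replicates 1 and 2, bars their mean, dotted lines mark 2-fold, and open grey symbols mark pairs not above the unnamed spots in all 4 channels. The rapamycin responses of *SSB1* and *SSB2* reach -2.83 and -2.77 in wild-type, and the *EGD1* arrays lie furthest apart in H2O2, at 0.34 and -2.17.

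Whether a gene differed between *med20Δ* and wild-type beyond its spread over states was tested with limma on the 6 treated states, 1 value per state, with Benjamini-Hochberg adjustment over 5521 genes. The untreated ratios were left out because *ZUO1* was known from them. The treated states compare the same 2 strains, so this does not make the test independent of that choice. *ZUO1* averaged 0.98 ± 0.13 (SE, n = 6), 1.98-fold, with a 95% interval of 0.67 to 1.29 and an adjusted p of 0.0160. *SSZ1* averaged 0.83 ± 0.10, 1.78-fold (0.59 to 1.07, adjusted p = 0.0159), and *EGD2* 0.49 ± 0.074, 1.41-fold (0.32 to 0.67, adjusted p = 0.0180). Each of the 3 was higher in 6 of 6 states, and 3.15% of all genes passed in that direction. By mean, *ZUO1* ranked 12 and *SSZ1* 28 among the 5521.

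The other 4 genes did not pass, and each was higher in 4 of 6 states. *SSB1* averaged 0.20 (95% interval -0.45 to 0.84, limma adjusted p = 0.761), *SSB2* 0.17 (-0.49 to 0.84, adjusted p = 0.803), *EGD1* 0.01 (-0.47 to 0.48, adjusted p = 0.990) and *BTT1* -0.02 (-0.19 to 0.15, adjusted p = 0.914). The intervals of the *SSB* genes take in the mean of *SSZ1*. Of 125 RP genes, 2 passed although their median was 0.54, and 55 had an unadjusted p under 0.05. In limma's test none passed among genes of ribosome biogenesis (0 of 37), elongation (0 of 9), cytosolic Hsp70 and Hsp90 (0 of 13), TRiC (0 of 7), prefoldin (0 of 5), the signal recognition particle (0 of 3) and nascent chain modification (0 of 8). At an unadjusted p under 0.05 these lists held 3, 1, 0, 0, 0, 1 and 1 genes in the same order, against 1186 of all 5521. For each member alone, an exact sign-flip permutation test over the 6 states gave a two-sided p of 0.03125 for *ZUO1*, *SSZ1* and *EGD2*, the smallest that 64 sign assignments allow. Any gene with the same sign in all 6 states gets this value.

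The states are separate cultures of the same 2 strains, so these p-values measure the spread between states and not that between independent deletion clones. How much of the treated data was in view when the genes were chosen is not known, so the tests are not independent evidence. The call of *EGD2* was lost in 5 of 16 alternative settings, with adjusted p of 0.0579, 0.0598, 0.0509 and 0.0518 without CPZ, tunicamycin, heat stress or diauxic shift, and 0.133 without replicate 1. That of *ZUO1* was lost without tunicamycin (adjusted p = 0.0537).

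**Figure D5:**
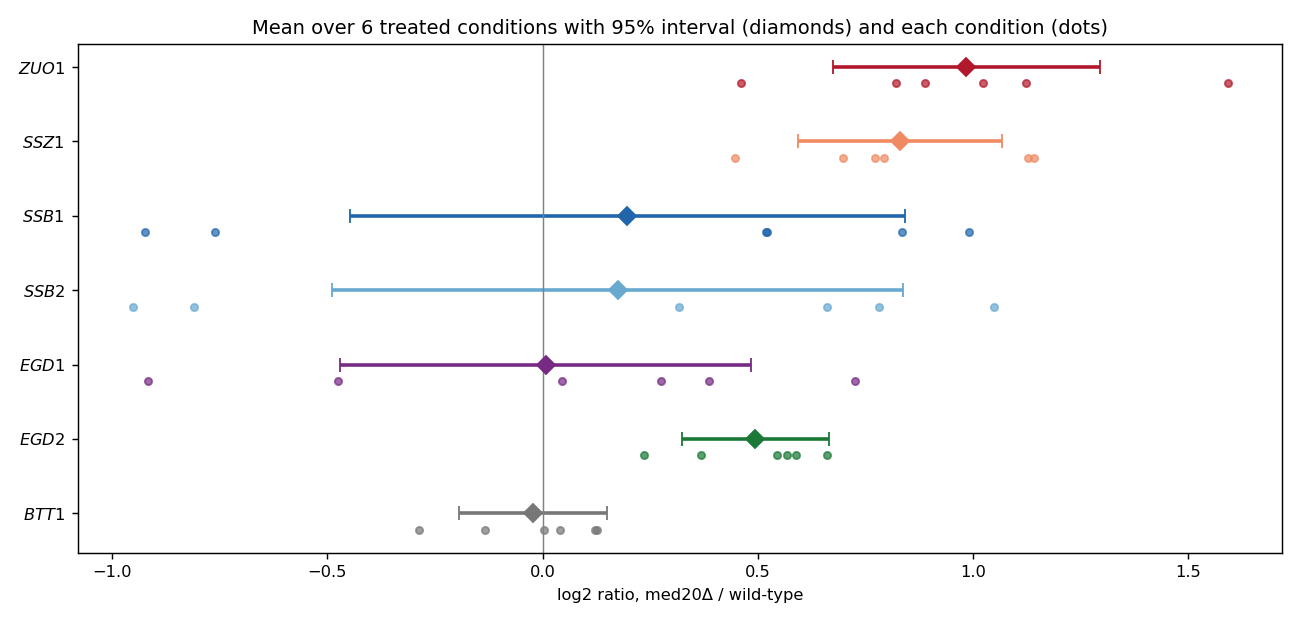
Mean log2 ratio of *med20Δ* over wild-type across 6 treated states (diamonds) with limma's 95% interval, and the ratio in each state (dots). The intervals of *ZUO1*, *SSZ1* and *EGD2* lie above 0, and the dots of *SSB1*, *SSB2* and *EGD1* fall on both sides of it.

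Strains without other Mediator subunits were compared with wild-type after rapamycin only. None of the 5 genes with signal there (*ZUO1*, *SSZ1*, *SSB2*, *EGD1* and *EGD2*) was past 2-fold in *med16Δ* (0.236% of 5926 genes in either direction), *med31Δ* (0.843% of 5929) or *cycCΔ* (0.641% of 5773, *EGD1* not measured on both arrays). *ZUO1* had 0.58 (0.50 and 0.65) in *med16Δ*, 0.71 (0.85 and 0.56) in *med31Δ* and 0.14 (0.35 and -0.08) in *cycCΔ*. *SSZ1* had 0.25 (0.27 and 0.24), 0.81 (0.81 and 0.80) and 0.23 (0.23 and 0.23) in the same order. *SSB2* had 0.45 (0.34 and 0.55), 0.53 (0.38 and 0.69) and 0.11 (-0.05 and 0.27). Both arrays were above 0 for *ZUO1* and *SSB2* in *med16Δ* and *med31Δ*, and for *SSZ1* in all 3 strains. The same held for 1542 of 5926 genes in *med16Δ*, 1569 of 5929 in *med31Δ* and 1566 of 5773 in *cycCΔ*.

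The NAC genes lay nearer to 0 in these strains. *EGD2* had 0.23 (0.16 and 0.29) in *med16Δ*, 0.05 (0.05 and 0.04) in *med31Δ* and -0.02 (0.46 and -0.51) in *cycCΔ*. *EGD1* had 0.05 (0.08 and 0.01) and -0.04 (-0.20 and 0.13) in *med16Δ* and *med31Δ*, and in *cycCΔ* it was measured on replicate 2 alone, at 0.29. The RP medians were 0.44 in *med16Δ*, -0.01 in *med31Δ* and 0.06 in *cycCΔ*, so *med31Δ* had *ZUO1* and *SSZ1* above wild-type on both arrays with an RP median near 0. With 1 replicate per strain these differences have no test.

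Across comparisons the genes can also be set beside each other by the Pearson r of their pair means, given as a description because several comparisons share a strain or treatment and the 2 rapamycin responses carry much of the spread. Each was computed over all 12 comparisons (4986 genes) and over the 9 without *med16Δ*, *med31Δ* and *cycCΔ* (5450 genes), a choice made after seeing the dim *SSB1* and *BTT1* spots. *SSZ1* was the nearest gene to *ZUO1* over 12 (r = 0.955), ahead of *CSE1* (0.951), *RRN6* (0.950), *PRP8* (0.949) and *TYS1* (0.939), but ranked 4 over 9 (0.971), behind *DPH2* (0.977), *MKT1* (0.976) and *BUD23* (0.971). *ZUO1* was the nearest gene to *SSZ1* over both, with *CBP1* (0.951), *PRP8*, *HRP1* and YCL074W (0.942 each) next over 12. *SSB1* and *SSB2* were nearest to each other over 9 (0.992). Over 12 their r was 0.982, and *PRS4* (0.986) and *MAP1* (0.984) came before *SSB1* for *SSB2*.

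*EGD2* was nearest to *ISM1* over 12 (0.973), before *IMD4* (0.964), *SPT15* (0.960), *TIF11* and *FCY1* (0.957 each), and to *SPT15* over 9 (0.983). Over the 9 comparisons *EGD1* was nearest to *GPP1* (0.973) and *BTT1* to MLO50 (0.907). The median r with the RP genes over the 9 was 0.923 for *SSB2*, 0.916 for *SSB1*, 0.868 for *EGD2*, 0.827 for *SSZ1*, 0.800 for *ZUO1*, 0.643 for *EGD1* and 0.188 for *BTT1*. That with the ribosome biogenesis genes was 0.917 for *SSB2*, 0.923 for *SSB1*, 0.810 for *EGD2*, 0.806 for *SSZ1*, 0.832 for *ZUO1*, 0.692 for *EGD1* and 0.0263 for *BTT1*. The RP and biogenesis values of *SSB1*, *SSB2* and *ZUO1* lay close together, so these patterns do not set the 2 lists apart.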

How the data were processed

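Scanner intensity values for Cy5 and Cy3, with local background, were deposited for each of 24 arrays, beside raw and normalized log10 ratios made by the authors; how these were normalized, and the image software, are not given in the sources used here. The raw log10 ratio equalled that of the background-subtracted intensity values to within 5e-07. From the intensities, background was corrected by normexp (offset 50) and each array was normalized by loess over ORF spots (limma 3.58.1, R 4.3.3). Left out were 29 unnamed and 576 control spots, and 309 to 622 ORF spots per array whose flag was not 1. Ratios were turned by dye, so that a log2 ratio is mutant over wild-type or treated over untreated. ORFs were named from the files, updated through RefSeq's R64 table (5801 of 6307 matched).

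The 2 arrays of a comparison were averaged. Counts used 2-fold on the mean, and the test over 6 states used limma's lmFit and eBayes at an adjusted p of 0.05. Both were run on simulated data with independent noise for each gene. Such data lack the shared strains of the real states, so no assurance is drawn from them. The precision is limited by the number of arrays. The members and gene lists were chosen with earlier results of these data known. Genes outside the members were named by fixed rules: deleted genes, at most 3 per list past 2-fold on both arrays with the largest change, and the 5 nearest patterns per member, of which some are given. Alternatives covered background, normalization, the authors' ratios, flags, dim spots, each array and each state. Promoter sequence was not analysed here.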

Additional observations from a re-analysis of the deposited data

Results flagged for a closer look

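In *med20Δ* relative to wild-type, 3 genes had both arrays above 0 in some states and both below 0 in others. The difference between states was not tested. Of all genes, 1878 of 5714 untreated and 1803 of 5732 in H2O2 were above 0 on both arrays. Below 0 on both were 1840 and 1698. How many of all genes changed sign in this way was not counted, so the pattern is not read as particular to these 3. *SSB1* had log2 ratios of 0.72 untreated, 0.84 with rapamycin and 0.99 with tunicamycin, and of -0.92 with H2O2 and -0.76 with heat stress. *SSB2* had 0.41 untreated, 0.66 with rapamycin, 0.78 with CPZ and 1.05 with tunicamycin, and -0.95 with H2O2 and -0.81 with heat stress. *SSB1* and *SSB2* can share signal, so the agreement of their signs is not that of 2 separate measurements. *BTT1*, a dim spot, had 0.12 with rapamycin and 0.13 with CPZ, and -0.13 with H2O2 and -0.29 with heat stress.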

How the results depend on the processing

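Over the 12 comparisons, 7 member ratios were higher by 2-fold or more and 6 were lower. Those lower were *SSB1*, *SSB2* and *EGD2* in the rapamycin responses, and *SSB1* and *SSB2* can share signal. In the comparisons with a higher member, 0.245% to 2.11% of all genes were higher by that much. In the rapamycin responses of *med20Δ* and wild-type 5.57% and 6.2% were lower. With 1 array in place of the mean the member counts ranged from 7 to 11 higher and from 6 to 12 lower. Asking for 2-fold on both arrays left 4 higher, and a 1.5-fold limit gave 23 higher and 14 lower. The shares over all genes under these alternatives are not given here, so the counts only describe the settings. Of 729 ratios under other settings, 646 moved by no more than 1 SD of the 2 arrays and 83 by more. Ratios from 1 array, or with dim spots left out, stay within that SD by construction, so the 646 include values that could not count as moved. Of those past 2-fold, 0 changed sign. Of 33 that changed sign, 30 had a value under 0.5 in size. Larger values that changed sign on 1 array were *EGD1* in H2O2 (from -0.92 to 0.34) and *SSB1* with CPZ (from 0.52 to -0.02) and diauxic shift (from 0.52 to -0.14). The test over 6 states called 3 members, and 1 without tunicamycin. *SSZ1* passed in 16 of 16 alternative fits (adjusted p 0.0032 to 0.0474), and the means of *ZUO1* and *EGD2* stayed at 0.86 to 1.09 and 0.45 to 0.55, with adjusted p of 0.0046 to 0.0537 and of 0.0093 to 0.133. The mean of *EGD1* was -0.53 without replicate 1 and 0.54 without replicate 2. Over all genes 272 were called, against 118 without replicate 1, 541 without replicate 2, 35 without CPZ, 43 without tunicamycin, 87 without rapamycin, heat stress or diauxic shift, 437 without H2O2 and 483 with the untreated state; the share of calls that were higher was 64%, and ran between 53.1% without H2O2 and 79.3% without heat stress (54.5% with local background subtracted, 55.5% with the deposited normalized ratios). No paired analysis was possible because the replicate number is the dye orientation and both arrays of a comparison were averaged into 1 replicate. Dim spots limit *BTT1* throughout and *SSB1* on 6 arrays.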
